A study of Mus musculus with 50 samples.

Results

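The genes described here encode the proteasome, the protease that degrades ubiquitin-tagged proteins. They were taken as the probes whose annotated mouse symbol is Psm followed by a letter from a to g and a number. There were 76 such probes, all with values, and they stood for 49 of the 15311 named genes measured. Of these, 47 encode subunits, activators, an inhibitor or assembly chaperones of the proteasome, and the other 2, Psmc3ip, which encodes a protein of meiotic recombination, and Psme3ip1, which encodes a partner of the activator Psme3, only share the pattern of the symbol. The 47 genes were split into the 5 immunoproteasome genes (Psmb8, Psmb9, Psmb10, Psme1 and Psme2, with 9 probes) and 42 others, namely 8 genes of the alpha ring, 8 of the beta ring, 6 ATPases and 14 non-ATPase genes of the regulatory particle, 3 other activators and inhibitors, and 3 assembly chaperones.

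The core of the proteasome is a barrel of stacked alpha and beta rings, and the active sites lie in the beta rings. The regulatory particle that caps the barrel recognises ubiquitin chains, unfolds the substrate with a ring of ATPases and feeds it into the core. Interferons and other inflammatory signals induce Psmb8, Psmb9 and Psmb10, catalytic subunits that replace Psmb5, Psmb6 and Psmb7 in newly built cores, and Psme1 and Psme2, whose products form an alternative cap. The resulting immunoproteasome is abundant in lymphoid tissue and is known for producing peptides for presentation on MHC class I.

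The data come from 50 two-colour arrays of whole spleen RNA from female mice, each giving the log2 ratio of spleen RNA (Cy5) to Universal Mouse Reference RNA (Cy3), a pool from lymphocytes, macrophages, embryo and several tissues. CpG ODN are phosphorothioate oligodeoxynucleotides with unmethylated CG dinucleotides, ligands of Toll-like receptor 9. BALB/c mice received 400 µg of the CpG ODN mixture intraperitoneally and were examined at 6 times, early at 0.5 h, 1 h or 3 h and later at 9 h, 24 h or 72 h (n = 4 arrays per time). Other BALB/c mice received 400 µg of control ODN and were examined after 3 h (n = 4), or were untreated (n = 6). TNF-KO mice, C57BL/6 mice in which the tumor necrosis factor gene is knocked out, and C57BL/6 control mice were each examined 3 h after CpG or untreated (n = 4 in each of these 4 groups). The labels of the TNF-KO and C57BL/6 control arrays name no dose, and no age, promoter or pooling is given for any group. The array titles of these CpG groups state the treatment while a second label of theirs reads untreated. The titles were followed, and Tnf stood at a log2 ratio of 3.16 to 4.59 on the C57BL/6 control CpG arrays, against 0.58 to 0.78 on the C57BL/6 control untreated arrays. On the TNF-KO arrays Tnf lay between -0.44 and 0.43 after CpG and between -0.61 and 0.09 without it.

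The ODN are shown because the comparison of CpG with control ODN rests on their sequences, with CG dinucleotides in capitals. ODN 1555 and 1466 formed the CpG mixture, and ODN 1612 and 1471 the control mixture, in which 1 CG remained.
ODN 1555: gctagaCGttagCGt
ODN 1466: tcaaCGttga
ODN 1612: gctagatgttagCGt
ODN 1471: tcaagcttga

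Each array carried between 27619 and 30590 values. Of the 49 genes, 48 had a value on all 50 arrays and the remaining gene, Psmc3ip, on 47. Every array was centred on its median, so that a level of 0 is the median probe, and a level compares the spleen with the reference pool, never one gene with another. In the BALB/c fit 15263 genes were tested, in the fit of TNF-KO and C57BL/6 control arrays 14950. A gene is called higher or lower here when limma's moderated test gave a Benjamini-Hochberg adjusted p under 0.05 over all genes of the comparison. All comparisons with untreated BALB/c spleens share the same 6 untreated arrays. As a check of the tissue, the mean of 7 B cell markers stood above the reference pool, at 2.24 to 3.48 on the 24 h and 72 h arrays and at 2.70 to 3.59 on the untreated BALB/c arrays. In whole tissue a larger share of a cell type and more RNA per cell cannot be told apart.

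After CpG ODN, Psmb8, Psmb9 and Psme1 were higher in BALB/c spleens at 3, 9, 24 and 72 h, Psmb10 at 9 h and 72 h, and Psme2 at 9 h. Of the 5 genes, 3 were called higher at 3 h, 5 at 9 h, 3 at 24 h and 4 at 72 h, and none was called lower. Among all genes tested, 6.82% were called higher and 3.14% lower at 3 h, 4.19% and 2.77% at 9 h, 6.83% and 1.62% at 24 h, and 6.43% and 4.15% at 72 h. With quantile normalization between arrays the share of the calls at 3 h that were higher was 58.3%, against 68.5% with median centring. The median difference of the 5 genes was 0.70 at 3 h, 0.79 at 9 h, 1.08 at 24 h and 0.92 at 72 h on the log2 scale, while the median of all genes lay between -0.03 and 0.03 at these times.

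Psmb9 encodes the inducible subunit that takes the place of the caspase-like subunit Psmb6, and it had the largest difference of the 47 genes at 3, 24 and 72 h. Its log2 ratio was 3.59, 3.85, 4.37 and 3.52 on the 24 h arrays and 3.78, 3.66, 4.30 and 3.23 on the 72 h arrays, against 2.08 to 2.49 (median 2.27) on the 6 untreated arrays. All 4 arrays of each time lay above every untreated array. The difference was 1.55 ± 0.24 (SE) at 24 h, a 2.93-fold rise with an adjusted p of 3.02e-05 by limma, and 1.46 ± 0.24 at 72 h (adjusted p = 0.00014). Earlier levels were 3.21, 3.03, 3.10 and 3.19 at 3 h and 3.34, 3.45, 3.08 and 2.43 at 9 h. Every 3 h array lay above the untreated range and replicate 4 at 9 h fell inside it, with differences of 0.85 (adjusted p = 0.017) and 0.79 (adjusted p = 0.0385) by limma.

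Psmb8 encodes the inducible chymotrypsin-like subunit. It stood at 2.69, 3.11, 2.79 and 2.56 at 24 h and at 2.71, 2.69, 2.82 and 2.29 at 72 h, against 1.53 to 1.78 (median 1.72) in untreated spleens. At 3 h it was at 2.50, 2.09, 2.29 and 2.81, and at 9 h at 2.94, 2.68, 2.69 and 1.87. The groups did not overlap with the untreated arrays at any of these 4 times. The differences were 0.72 ± 0.21 at 3 h, 0.84 ± 0.21 at 9 h, 1.08 ± 0.21 at 24 h and 0.92 ± 0.21 at 72 h, and limma gave adjusted p-values of 0.022, 0.00844, 0.000715 and 0.00505. The call at 3 h was lost with quantile normalization (adjusted p = 0.0679), and that at 9 h with the mean of all its probes (0.0646).

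Psmb10 encodes the inducible trypsin-like subunit and passed the test at 9 h and 72 h. Its level was 2.01, 1.34, 1.82 and 1.16 at 9 h and 2.33, 2.24, 1.77 and 1.13 at 72 h, against 0.65 to 1.15 (median 0.84) in untreated spleens. The lowest 72 h array lay within the untreated range and the lowest 9 h array just above it. The difference was 0.73 ± 0.22 at 9 h (limma adjusted p = 0.0373) and 1.01 ± 0.22 at 72 h (adjusted p = 0.00352), with 0.51 at 3 h (adjusted p = 0.17) and 0.53 at 24 h (adjusted p = 0.139).

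Psme1 and Psme2 encode the alpha and beta chains of the cap that interferon-gamma induces. Psme1 was at 1.31, 1.14, 1.54 and 1.80 at 3 h, and at 1.70, 2.39, 1.81 and 1.71 at 24 h, against 0.62 to 0.98 (median 0.77) in untreated spleens. All arrays of 3, 9, 24 and 72 h lay above the untreated ones, and Psme1 had the smallest adjusted p of the 5 genes at 3, 9 and 24 h, with 0.00398, 0.000853 and 6.95e-06 by limma. Its difference was 0.78 ± 0.16 at 9 h, 1.11 ± 0.16 at 24 h and 0.72 ± 0.16 at 72 h (adjusted p = 0.00364).

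Psme2 was called at 9 h alone among the times. Its levels were 0.83, 0.34, 1.18 and 0.64 at 3 h, and 1.64, 1.46, 1.41 and 0.36 at 9 h, against -0.31 to 0.52 in untreated spleens. At 24 h it was at 1.36, 0.11, 0.01 and 0.43, so that 3 of the 4 arrays were back within the untreated range, and at 72 h 2 of 4 arrays, at 0.47 and -0.12, were. The difference at 9 h was 1.17 ± 0.30, or 2.25-fold (limma adjusted p = 0.0114), and at 24 h 0.43 ± 0.30 (adjusted p = 0.415). Psme2 has 1 probe and a near-identical copy in the mouse genome, Psme2b, so signal from that copy cannot be told apart from its own.

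At 0.5 h and 1 h none of the 47 genes was called, when 0.256% and 3.3% of all genes were called in either direction. At an unadjusted p under 0.05 there were 5 of 47 at 0.5 h and 3 of 47 at 1 h, against 9.76% and 16.5% of all genes. Psmb9 averaged 2.83 at 0.5 h and 2.71 at 1 h, against 2.29 in untreated spleens (adjusted p = 0.51 and 0.38 by limma). Its 1 h arrays were at 3.08 and 3.25 in the first run of array numbers, and at 2.42 and 2.08 in the second. The runs are described below. In the first run alone, limma called Psmb9 (0.84, adjusted p = 0.0283) and Psmb10 (0.62, adjusted p = 0.0491) higher at 1 h. That fit called 1687 of all genes, against 503 in the main fit. Among the other members the smallest p belonged to Psme4, a nuclear activator, at 0.5 h (-0.74, adjusted p = 0.51) and to Psmd1, the largest scaffold subunit of the regulatory particle, at 1 h (-0.53, adjusted p = 0.198).

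**Figure D1:**
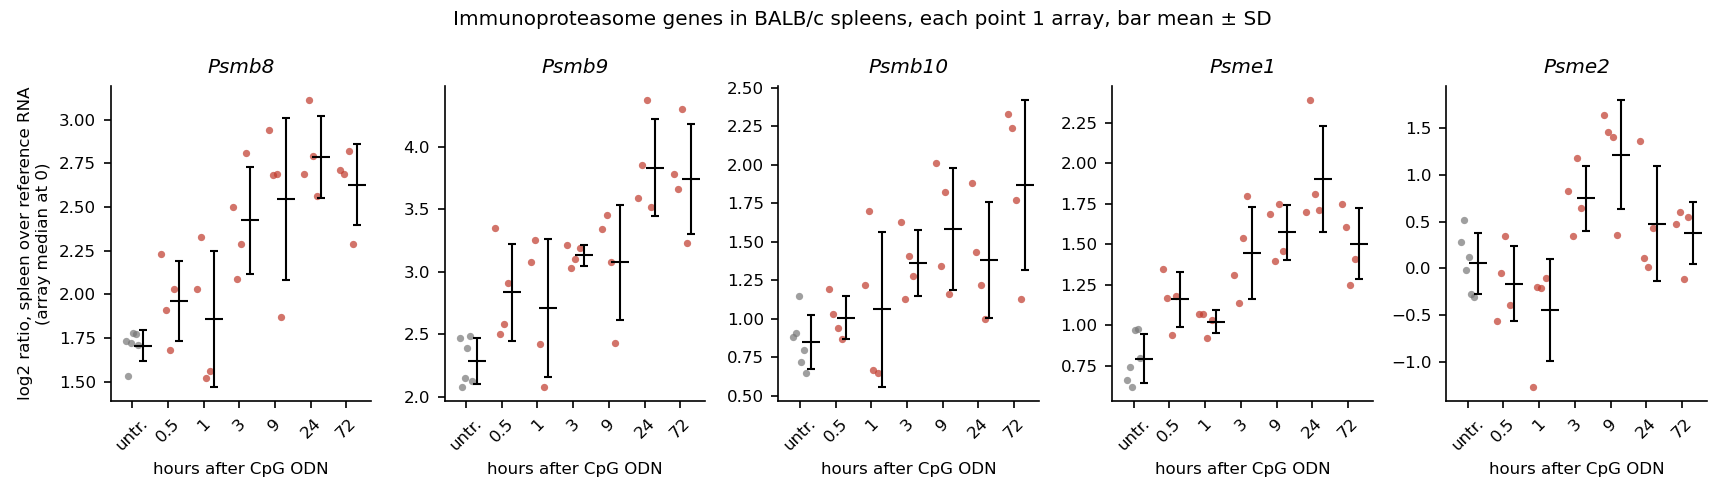
Log2 ratio of spleen over reference RNA of the 5 immunoproteasome genes in untreated BALB/c spleens (grey) and at 6 times after CpG ODN (red). Each point is 1 array and bars give the mean ± SD; the 24 h and 72 h arrays of Psmb9 lie between 3.23 and 4.37, above the untreated range of 2.08 to 2.49.

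The 5 genes lie at 3 loci, and the windows around their starts are printed because the genes were called at overlapping times. In the RefSeq annotation of GRCm38.p6, Psmb9 and Psmb8 flank Tap1 on chromosome 17, with Tap2 next to Psmb8, and Psme1 and Psme2 neighbour each other on chromosome 14. Windows of 300 bases, from 250 before to 50 after the start, were given for 39 of the 47 genes. The capitals mark matches to the motifs described after them. The windows are chr17:34187281-34187580 (minus strand) for Psmb9, chr17:34197945-34198244 (plus) for Psmb8, chr8:105938343-105938642 (minus) for Psmb10, chr14:55578244-55578543 (plus) for Psme1 and chr14:55591052-55591351 (minus, the first of 2 annotated starts) for Psme2.
Psmb9: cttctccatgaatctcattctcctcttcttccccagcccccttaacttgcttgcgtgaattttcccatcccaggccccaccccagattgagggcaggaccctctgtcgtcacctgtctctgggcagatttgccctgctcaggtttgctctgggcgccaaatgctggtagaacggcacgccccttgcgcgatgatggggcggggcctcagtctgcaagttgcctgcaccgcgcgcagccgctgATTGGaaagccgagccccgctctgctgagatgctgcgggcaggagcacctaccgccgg
Psmb8: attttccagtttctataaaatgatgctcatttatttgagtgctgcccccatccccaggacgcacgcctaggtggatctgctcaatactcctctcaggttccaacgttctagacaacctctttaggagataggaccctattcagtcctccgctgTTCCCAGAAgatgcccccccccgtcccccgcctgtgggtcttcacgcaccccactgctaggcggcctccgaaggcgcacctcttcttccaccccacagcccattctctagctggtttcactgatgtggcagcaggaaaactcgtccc
Psmb10: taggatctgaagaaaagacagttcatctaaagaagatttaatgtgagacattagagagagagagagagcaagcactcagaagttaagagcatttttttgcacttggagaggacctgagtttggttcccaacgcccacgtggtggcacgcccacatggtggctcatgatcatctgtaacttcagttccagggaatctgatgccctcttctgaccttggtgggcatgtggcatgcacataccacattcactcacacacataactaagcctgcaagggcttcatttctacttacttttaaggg
Psme1: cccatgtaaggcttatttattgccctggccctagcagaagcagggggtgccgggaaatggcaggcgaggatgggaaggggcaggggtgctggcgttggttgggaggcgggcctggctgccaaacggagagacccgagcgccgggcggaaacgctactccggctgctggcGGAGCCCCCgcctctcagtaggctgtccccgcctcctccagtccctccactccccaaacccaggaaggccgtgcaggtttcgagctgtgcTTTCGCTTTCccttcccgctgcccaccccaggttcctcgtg
Psme2: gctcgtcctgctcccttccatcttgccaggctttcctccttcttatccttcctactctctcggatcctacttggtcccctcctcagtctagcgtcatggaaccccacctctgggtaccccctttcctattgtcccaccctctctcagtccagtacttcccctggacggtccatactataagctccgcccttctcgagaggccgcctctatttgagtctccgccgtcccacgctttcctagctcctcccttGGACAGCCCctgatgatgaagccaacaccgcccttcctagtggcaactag

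Psme1 held the core of the interferon-stimulated response element, GAAA repeated after any 2 bases, on the minus strand at bases 10 to 19 after the start, and this motif occurs in 3.4% of all 32851 windows. Psmb8 held TTCNNNGAA, the palindrome that STAT factors bind, from -97 to -89, a motif of 8.3% of all windows. Psme1 and Psme2 held GGGNNNTCC, a loose form of the NF-kappa-B motif (17.8% of windows), at -81 to -73 in Psme1 and at 1 to 9 in Psme2. Psmb9 held CCAAT at -8 to -4 (37.4%), on the strand opposite to the one printed. TGACNNNGC, the antioxidant response core (12.4%), was in none of the 5. Of the 34 other members with a window, the interferon-response core was in 3, TTCNNNGAA in 2, GGGNNNTCC in 7, TGACNNNGC in 6 and CCAAT in 13. Both strands were searched, and a match says only that these letters are in the window.

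None of the 3 constitutive catalytic subunits was called at 3 h. Psmb6, which Psmb9 replaces, was at -0.52, -0.37, -0.56 and -0.07 at 3 h, against -0.56 to -0.11 in untreated spleens, and the groups overlapped. At 9 h it was at 0.12, 0.32, 0.16 and 0.15, above every untreated array, with a difference of 0.55 ± 0.16 (limma adjusted p = 0.0296), and at 24 h the difference was 0.54 ± 0.16 (adjusted p = 0.0308). At 72 h it overlapped with the untreated arrays again (0.19, adjusted p = 0.463). Psmb7, which Psmb10 replaces, was at 0.20, 0.14, 0.30 and -0.12 at 72 h, against -0.76 to -0.24 in untreated spleens. That was its only call among the times, with a difference of 0.62 ± 0.18 (limma adjusted p = 0.0247), and its differences were 0.09 at 3 h, 0.39 at 9 h and 0.50 at 24 h. Psmb5, which Psmb8 replaces, was at 0.08, 0.69, 0.91 and 0.21 at 24 h, all above the untreated range of -0.40 to 0.06, yet did not pass the test (0.70 ± 0.24, limma adjusted p = 0.0658). Its 72 h arrays spread from -0.27 to 1.28 (adjusted p = 0.112). Whether an inducible subunit and its counterpart responded differently was not tested.

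**Figure D2:**
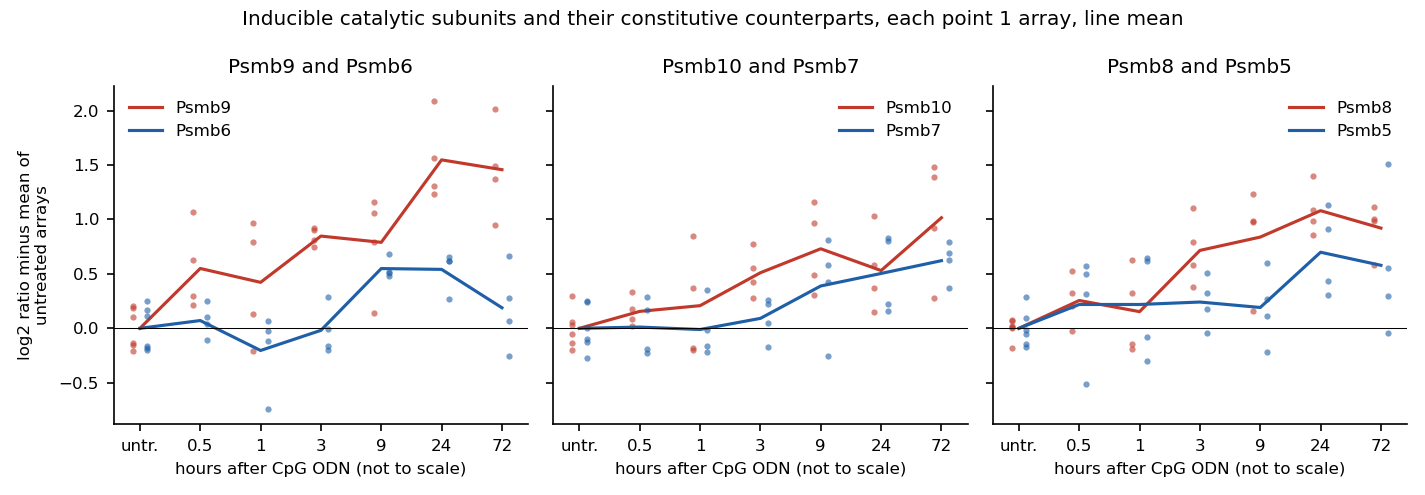
Log2 ratio minus the mean of the untreated arrays for each inducible catalytic subunit (red) and the constitutive subunit it replaces (blue) in BALB/c spleens. Points are arrays and lines join group means; at 24 h the mean of Psmb9 lies 1.55 and that of Psmb6 0.54 above the untreated mean.

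Most calls among the other 42 genes came at 24 h and 72 h. Of these genes, 2 were called higher at 3 h, 4 at 9 h, 18 at 24 h and 16 at 72 h, beside the shares of all genes given above, and none was called lower at these times. With array weights the counts were 6 at 3 h, 7 at 9 h and 33 at 72 h, and all 5 immunoproteasome genes were called at 3 h. Array weights also raised the calls over all genes, in either direction, to 2656 at 3 h, 1899 at 9 h and 5995 at 72 h. Without weights they were 1520, 1062 and 1616. With replicate numbers as a block, fewer of the 42 genes were called at 72 h, beside 989 calls over all genes. Without weights or block, the median difference of the 42 genes was 0.12 at 3 h, 0.14 at 9 h, 0.48 at 24 h and 0.46 at 72 h. At 24 h 37 of the 42 differences were positive and at 72 h 40, against 52.9% and 52.6% of all genes. At an unadjusted p under 0.05, 31 of all 47 genes passed at 24 h and 33 at 72 h, all of them higher, while 23.1% and 27.5% of all genes passed in either direction.

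The alpha ring gates the entrance of the barrel. Of its 8 genes 7 were called higher at 24 h and 7 at 72 h, beside 6.83% and 6.43% of all genes, with medians of 0.74 and 0.57. Psma5 was at 0.57, 0.43, 0.46 and 0.29 at 24 h, and at 0.60, 0.43, 0.58 and 0.02 at 72 h, against -0.82 to -0.12 (median -0.59) in untreated spleens. All arrays of both times lay above the untreated ones, with differences of 0.96 ± 0.16 (limma adjusted p = 0.000115) and 0.94 ± 0.16 (adjusted p = 0.000279). Psma7 was also higher at 24 h (0.75 ± 0.15, adjusted p = 0.00106). Psma5 was already higher at 3 h (0.55 ± 0.16, adjusted p = 0.0224), as was Psma6 (0.50 ± 0.17, adjusted p = 0.0485, and 0.0583 with all probes tested), and at 9 h Psma7 (0.71 ± 0.15, adjusted p = 0.0016), Psma5 and Psma6 were called by limma. The member that was not called is Psma8, known as a form of germ cells, at 1.00 to 2.80 on the 24 h arrays and 1.00 to 2.19 on the untreated arrays (adjusted p = 0.555).

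In the beta ring, 5 of 8 genes were called higher at 24 h and 2 at 72 h, beside 6.83% and 6.43% of all genes. The medians were 0.70 and 0.47. Psmb2, a structural beta subunit, stood at 0.63, 0.82, 0.62 and 0.36 at 24 h, against -0.36 to 0.07 in untreated spleens, without overlap, and its difference was 0.79 ± 0.16 (limma adjusted p = 0.00104). Psmb11, known as the catalytic subunit of the thymus, was at -0.99 to -0.06 at 24 h and at -0.45 to 0.01 in untreated spleens (adjusted p = 0.273).

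The regulatory particle unfolds substrates and removes their ubiquitin. Of its 6 ATPases 2 were called higher at 24 h and 2 at 72 h, and of its 14 non-ATPase genes 2 and 4, beside 6.83% and 6.43% of all genes. Psmc2, an ATPase of the unfolding ring, was at 0.11, 0.30, 0.58 and 0.32 at 72 h, above the untreated range of -0.77 to -0.17, with a difference of 0.82 ± 0.17 (limma adjusted p = 0.00239). Psmd14, the deubiquitinase that removes ubiquitin chains from the substrate, was higher at 24 h (0.62 ± 0.17, adjusted p = 0.0212) and at 72 h (0.56 ± 0.17, adjusted p = 0.0332). Psmd9, a chaperone of regulatory particle assembly, gave -0.03 at 24 h and -0.21 at 72 h (adjusted p = 0.938 and 0.446). Of the chaperones of core assembly, Psmg1 was at 0.13, 0.28, 0.15 and -0.31 at 24 h, against -0.81 to -0.41 in untreated spleens, and was called at 24 h (0.72 ± 0.15, adjusted p = 0.00125) and at 72 h (0.62 ± 0.15, adjusted p = 0.00652).

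Of the remaining activators and the inhibitor 1 was called at 24 h and none at 72 h, beside 6.83% and 6.43% of all genes called higher. Psmf1, the proteasome inhibitor, was called higher at 24 h (0.70 ± 0.22, limma adjusted p = 0.0383), at -1.81, -1.92, -1.74 and -2.48, against -2.80 to -2.60 in untreated spleens, without overlap. Psme3, the nuclear activator related to Psme1, and Psme4 gave -0.25 and -0.26 at 24 h (adjusted p = 0.606 and 0.688). The pattern match Psmc3ip was higher at 24 h (0.80 ± 0.24, adjusted p = 0.0314) and 72 h (0.94 ± 0.24, adjusted p = 0.0124), and the limma fit had 2 of its 4 arrays at 9 h and 3 of 4 for control ODN.

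**Figure D3:**
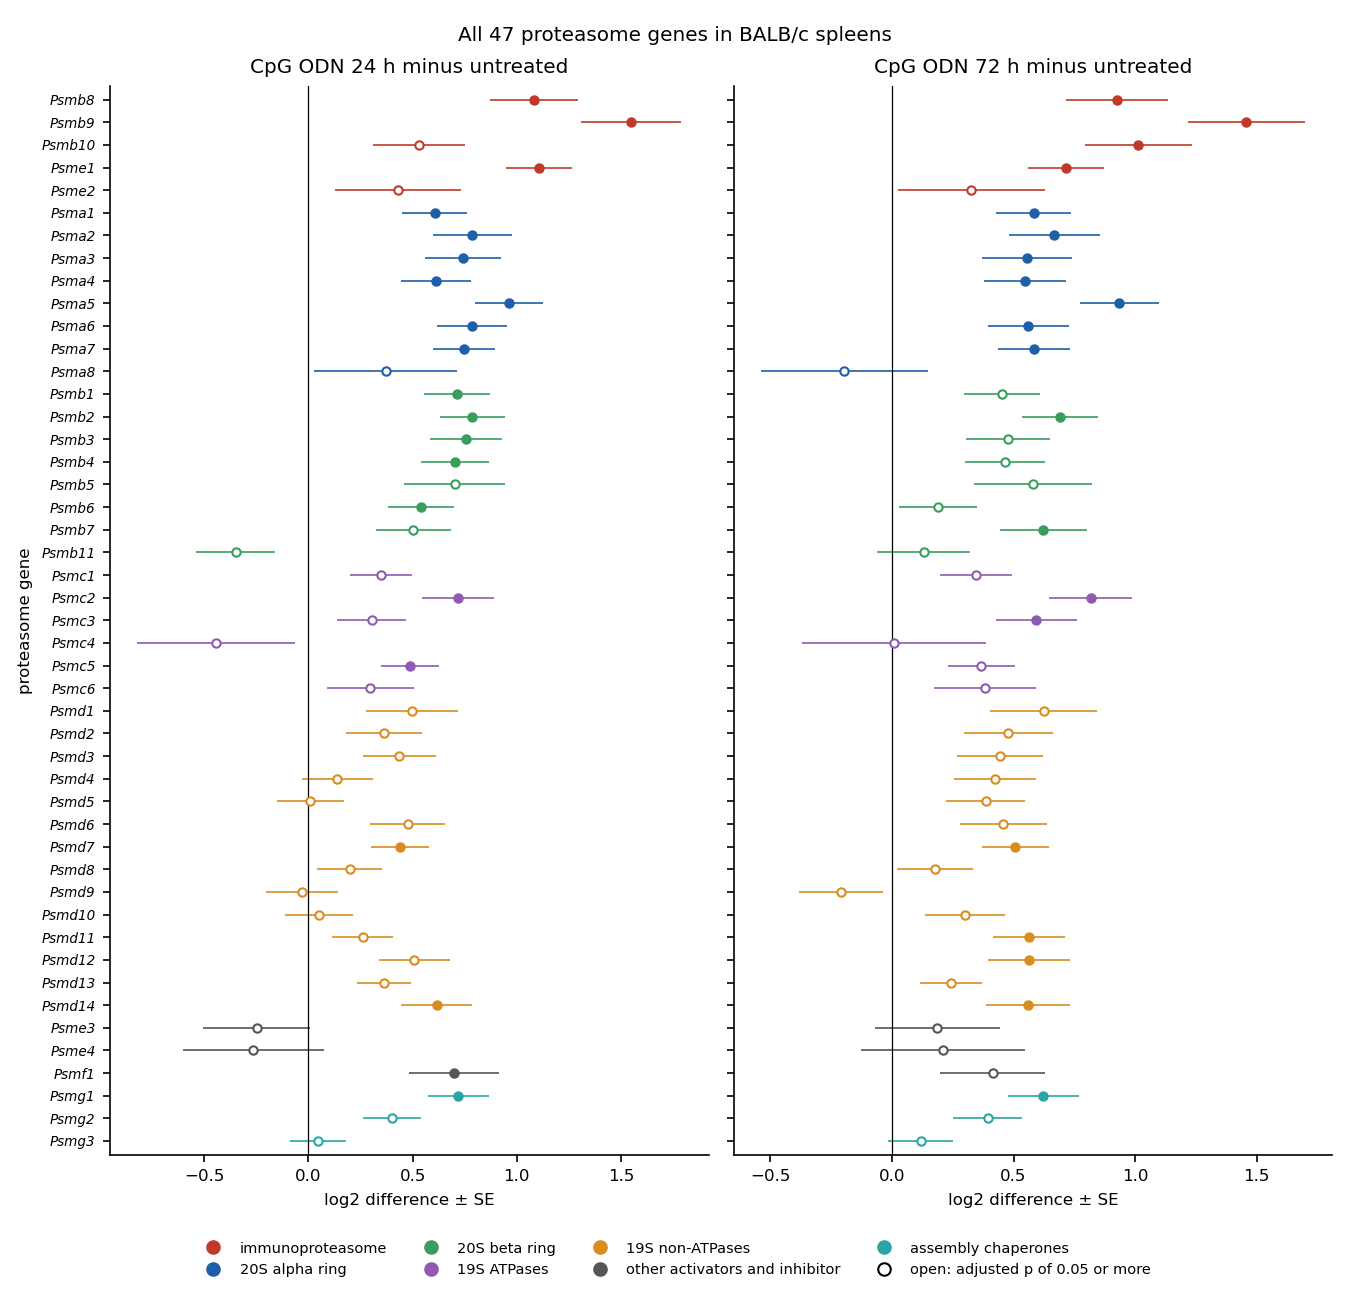
Log2 difference from untreated BALB/c spleens (± SE) of all 47 proteasome genes at 24 h and 72 h after CpG ODN, coloured by class. Filled points have a limma adjusted p under 0.05; 21 are filled at 24 h and 20 at 72 h, all right of 0.

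**Figure D4:**
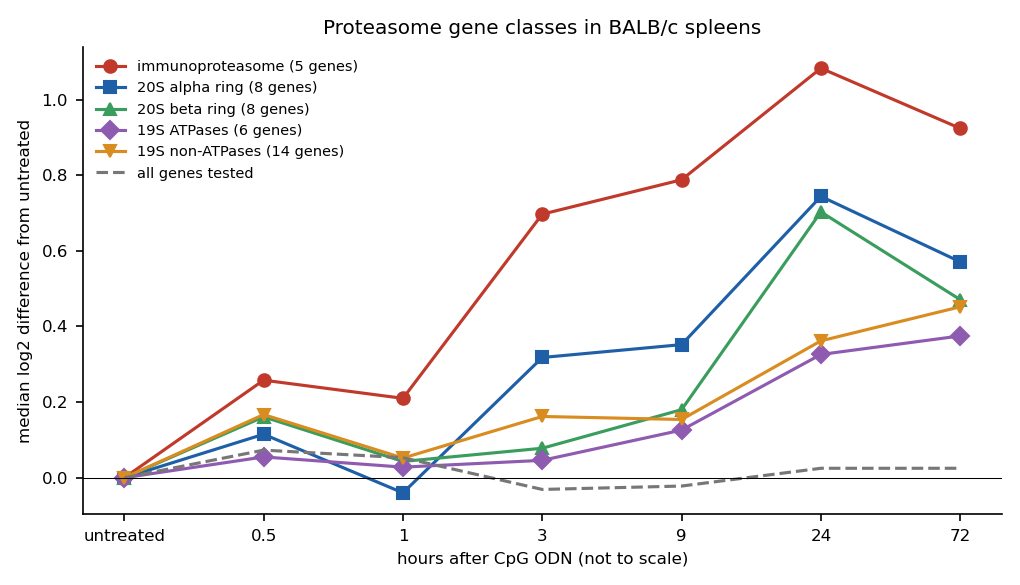
Median log2 difference from untreated BALB/c spleens for 5 classes of proteasome genes and for all genes tested, over the 6 times after CpG ODN, where 20S names the core and 19S the regulatory particle. The immunoproteasome median reaches 0.70 at 3 h while the alpha ring is at 0.32 and the beta ring at 0.08.

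The calls at 24 h and 72 h, which share the untreated arrays, had 15 genes in common, or 71.4% of the 21 at 24 h and 75.0% of the 20 at 72 h. All 5 calls of 3 h were among the 9 of 9 h, and 7 of those 9 were among the 21 of 24 h. These calls share the untreated arrays too, and the overlap over all genes was not counted. The overlaps therefore do not show a trait particular to proteasome genes. Between successive times, no member was called from 3 h to 9 h, where 0.996% of all genes were, nor from 24 h to 72 h, where 3.33% were. At an unadjusted p under 0.05 there were 3 of 47 in each of these comparisons, against 9.38% of all genes from 3 h to 9 h and 16.1% from 24 h to 72 h. The smallest p among the other members belonged to Psmb6 from 3 h to 9 h (0.57, limma adjusted p = 0.137) and to Psmb11 from 24 h to 72 h (0.48, adjusted p = 0.235). From 9 h to 24 h, 4 of the 42 others were called higher, beside 4.88% of all genes, and none of the 5 immunoproteasome genes was. The 4 were Psmb1 (0.79 ± 0.17, adjusted p = 0.00503), Psmb2 (0.60 ± 0.17, adjusted p = 0.0302), Psmg1 (0.55 ± 0.16, adjusted p = 0.0327) and Psma1 (0.58 ± 0.17, adjusted p = 0.0342). None of them was called when only the arrays of these times, or of the run they shared, were fitted. Psmb9 gave 0.76 ± 0.26 (adjusted p = 0.0723) and Psme2 -0.74 ± 0.33 (adjusted p = 0.167) between 9 h and 24 h.

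The array numbers in the titles fall into runs of neighbouring numbers, used here as a stand-in for the order of processing. The 24 h arrays of replicates 2 to 4, the 9 h arrays and 2 of the 3 h arrays shared a run without untreated arrays, and the 72 h arrays shared a run with the control ODN arrays. With the run as a fixed block, 24 h is linked to untreated spleen through the 3 h arrays alone, of which 2 shared a run with 1 untreated array and with 1 h arrays, and other 1 h arrays shared a run with the remaining 5 untreated arrays. In that fit Psmb8 (1.74, adjusted p = 0.0437), Psmb9 (2.16, adjusted p = 0.0201) and Psme1 (1.69, adjusted p = 0.00517) were still called at 24 h by limma. Of the other 42 genes none was, although their median was 0.44, and 160 genes in all were called, against 1290 without the block. For 72 h no such fit could be had, so run and time cannot be told apart there. Within its run, Psmb9 was at 3.23 to 4.30 on the 72 h arrays, against 1.96 to 3.04 on the control ODN arrays, and the median of the 42 others at 0.07 to 0.50, against -0.30 to -0.02. The control ODN arrays are of 3 h, so both time and treatment differ there, and that run held no untreated array. At 9 h the block left 1 of the 5 immunoproteasome calls, Psme1, and none of the 4 others.

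Single arrays weighed on the counts. At 3 h, 1 of the 5 immunoproteasome genes was called without replicate 1 or replicate 4 of that time. The 2 calls among the others at 3 h dropped to 0 without replicate 2, 3 or 4 or untreated replicate 4, and to 1 without replicate 1 or untreated replicate 2, 3, 5 or 6. At 9 h the immunoproteasome count was 1 without replicate 1, and 3 without replicate 3 or untreated replicate 2, 4 or 6, and the others had 2 calls without replicate 1 or 2. At 24 h the others had 10 calls without replicate 3 of 24 h. At 72 h they had 9 without replicate 1, 8 without replicate 2 and 5 without replicate 3 of 72 h. Between 9 h and 24 h the others had 1 call without replicate 4 of 9 h or replicate 1, 2 or 3 of 24 h, and without replicate 4 of 24 h they had 8 and the immunoproteasome genes 1. Without replicate 4 of 9 h, 1 other was called from 3 h to 9 h.

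Cell markers changed too, also where no proteasome gene was called. The shares of all genes called at 3, 9, 24 and 72 h are those given above. At 1 h 3.3% of all genes were called in either direction, and after control ODN 1.42%. The mean of 11 monocyte and macrophage markers lay at 2.82 to 3.31 at 24 h and at 2.63 to 3.23 at 72 h, against 1.75 to 2.50 in untreated spleens, with 5 and 4 of the 11 called higher. The mean of 8 T cell markers lay at 1.34 to 1.70 at 72 h, against 1.79 to 2.30 in untreated spleens, with 3 of 8 called lower. At 9 h 3 of 8 were lower too, at means of 1.08 to 1.81. Of 10 neutrophil markers 4 were called higher at 3 h and 4 at 9 h, and 3 at 24 h and at 72 h. Their means were 2.82 to 2.96 at 3 h and 3.09 to 3.45 at 9 h, against 1.69 to 2.61 in untreated spleens. The median difference of the 10 markers was 0.05 at 3 h and 0.46 at 9 h, so the list did not rise as a whole at 3 h. At 1 h, without a proteasome call, 5 of the 10 were higher, at means of 2.98 to 3.93. Monocyte and macrophage means were 2.68 to 3.19 at 1 h, with 2 of 11 higher. At 9 h they were 2.12 to 2.54, with 3 higher and 1 lower. After control ODN, 2 neutrophil markers and 1 monocyte and macrophage marker were higher. Erythroid marker means were 3.11 to 3.96 at 24 h, against 4.06 to 4.36 in untreated spleens, without overlap, with 2 of 9 called lower. Proliferation marker means were 0.61 to 1.43 at 72 h, against -0.15 to 0.47 in untreated spleens, without overlap, with 0 of 8 called. The part of these cell types in the proteasome results was not tested. Pancreas markers ranged within groups, from 0.62 to 5.34 at 24 h and from 0.52 to 5.82 in untreated spleens. With their mean as a covariate, chosen after seeing the data, 3 immunoproteasome genes and 19 others were called at 24 h, and 4 and 18 at 72 h.

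Control ODN left the proteasome genes without a call at 3 h. None of the 47 differed from untreated spleens, where 1.42% of all genes were called in either direction, and at an unadjusted p under 0.05 there were 8 of 47, 4 higher and 4 lower, against 22.4% of all genes. The 216 genes called in all became 0 with arrays scaled to the same spread, 38 with only the groups compared and 1370 with array weights. The smallest p among the other members was that of Psmb11 (-0.54, limma adjusted p = 0.102). Psme2 was at -0.42, -0.52, -2.02 and -0.54 after control ODN, against -0.31 to 0.52 in untreated spleens. All 4 arrays lay below the untreated ones and replicate 3 far below the rest, and the difference did not pass the test (-0.92 ± 0.30, adjusted p = 0.0858). Without control ODN replicate 4, 1 immunoproteasome gene and 3 others were called. Psmb8 gave 0.37 (adjusted p = 0.299), Psmb9 0.27 (adjusted p = 0.532), Psmb10 0.31 (adjusted p = 0.41) and Psme1 0.20 (adjusted p = 0.455).

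Set directly against control ODN at 3 h, CpG ODN gave a higher level of 1 of the 5 immunoproteasome genes and of 3 others, and a lower level of 1 other, beside 7.4% of all genes higher and 10.9% lower. The immunoproteasome gene was Psme2, at 0.34 to 1.18 after CpG ODN and at -2.02 to -0.42 after control ODN, a difference of 1.62 ± 0.33 or 3.07-fold (limma adjusted p = 0.000704). Psme1 was at 1.14 to 1.80 after CpG ODN, against 0.69 to 1.38 after control ODN (0.45, adjusted p = 0.0627), and Psmb9 at 3.03 to 3.21, against 1.96 to 3.04 (0.58, adjusted p = 0.124). Psmb8 (0.35, adjusted p = 0.316) and Psmb10 (0.20, adjusted p = 0.618) overlapped between the mixtures, as did Psme1 and Psmb9. Of the others, Psmd10, a chaperone of regulatory particle assembly also known as gankyrin, was higher (0.65 ± 0.18, adjusted p = 0.0115), with Psmb11 (0.61, adjusted p = 0.0403) and Psma7 (0.46, adjusted p = 0.0491). Psmd9 was at 0.86, 0.96, 0.66 and 0.72 after CpG ODN, against 1.40, 1.07, 1.79 and 1.96 after control ODN, without overlap, and fell by 0.75 on the log2 scale (SE 0.19, adjusted p = 0.00509). The other Psmd9 probes gave 0.40 and 0.28 (adjusted p = 0.448 and 0.475), and the mean of all its probes -0.02 (adjusted p = 0.946), so the call rests on 1 probe. The calls of Psmb11 and Psma7 were lost under scaling to the same spread (adjusted p = 0.0594 and 0.0916) and quantile normalization (0.0677 and 0.097). The same settings raised the immunoproteasome count to 4 and 3, with Psmb9 (adjusted p = 0.00202 and 0.028) and Psme1 (0.00518 and 0.0226) called under both and Psmb8 (0.0172) under scaling. The mean of all probes gave 3, with Psmb8 (0.0114) and Psme1 (0.00368). Without CpG replicate 3 or control ODN replicate 3 the others had 1 call and without CpG replicate 4 they had 2, while the immunoproteasome genes had 2 without CpG replicate 2 or control ODN replicate 3. Of 7 B cell markers 3 were called lower, at means of 2.57 to 2.87 after CpG ODN and of 3.01 to 3.84 after control ODN, and of 11 monocyte and macrophage markers 2 were higher and 3 lower, and their part was not tested. The runs of the CpG and control ODN arrays differed, so run and mixture cannot be told apart.

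In C57BL/6 control mice CpG raised 1 of the 5 immunoproteasome genes and 3 of the 42 others at 3 h, and none was lower, beside 4.95% of all genes higher and 2.75% lower. Psme2 was at 0.69, 0.53, 1.11 and 0.37 after CpG, against -0.74, -0.16, -0.28 and 0.12 in untreated spleens, without overlap, and rose by 0.94 ± 0.25 (limma adjusted p = 0.0247). Psme1 was at 1.56 to 1.98 after CpG, against 0.74 to 1.42 in untreated spleens, and its difference of 0.66 ± 0.28 did not pass (adjusted p = 0.168). Psmb9 was at 3.06 to 3.35 after CpG, against 2.39 to 3.01 in untreated spleens (0.37, adjusted p = 0.313), and Psmb8 (0.31, adjusted p = 0.406) and Psmb10 (0.26, adjusted p = 0.445) overlapped with the untreated arrays.

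Of the others, Psmd1 was at -0.41, -0.53, -0.43 and -0.14 after CpG, against -1.32, -0.84, -0.94 and -0.99 in untreated C57BL/6 control spleens, a difference of 0.64 ± 0.17 (limma adjusted p = 0.0269). Psmg1 (0.66 ± 0.18, adjusted p = 0.0291) and Psmd11, a regulatory particle subunit (0.51 ± 0.15, adjusted p = 0.0461), were also called, and none of these 3 overlapped between the groups. With quantile normalization Psmg1 (adjusted p = 0.0561) and Psmd11 (0.114) were not called. None of 11 pancreas markers was called, and their mean was 3.54 to 6.61 after CpG and 0.36 to 6.32 in untreated spleens. Of 10 neutrophil markers 4 were called higher, at means of 3.70 to 4.95 after CpG and of 2.74 to 3.48 in untreated spleens, and their part was not tested. With the pancreas mean as a covariate 0 immunoproteasome genes and 1 other gene were called. Without untreated replicate 1 or CpG replicate 1 or 3 there was no call in either group of genes, and without untreated replicate 3 Psme2 was not called. The others had 1 call without CpG replicate 2 or untreated replicate 2 or 3, and none without untreated replicate 4.

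In TNF-KO mice CpG raised 1 of the 5 immunoproteasome genes and none of the 42 others, beside 3.45% of all genes higher and 0.321% lower. Psmb10 was at 2.18, 2.36, 2.34 and 1.68 after CpG, against 1.46, 1.25, 1.51 and 1.38 in untreated TNF-KO spleens, without overlap, and rose by 0.74 ± 0.18 (limma adjusted p = 0.0264). Psmb9 was at 3.13 to 3.88 after CpG, against 2.57 to 3.29 in untreated spleens (0.63, adjusted p = 0.12), and Psmb8 at 2.74 to 3.04, against 2.09 to 2.81 (0.49, adjusted p = 0.26). Psme2 (0.35, adjusted p = 0.606) and Psme1 (0.32, adjusted p = 0.691) overlapped, with replicate 4 of the CpG group far below the others in Psme1. The smallest p among the other members was that of Psme3 (0.77, adjusted p = 0.152). The call of Psmb10 was lost when any 1 of 6 of the 8 arrays was left out, the exceptions being CpG replicate 4, without which 2 immunoproteasome genes were called, and untreated replicate 3. Without untreated replicate 4, 1 of the others was called. The call was also lost with quantile normalization (adjusted p = 0.0692) and with the run as a fixed block (0.0774). Of 10 neutrophil markers 5 were called higher, at means of 3.19 to 4.16 after CpG and of 1.35 to 3.34 in untreated spleens, and their part was not tested.

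The responses of both genotypes were compared directly. No member differed between TNF-KO and C57BL/6 control responses, where 0.0268% of all genes did. At an unadjusted p under 0.05 there were 4 of 47, against 8.02% of all genes. The difference of responses was 0.48 ± 0.26 for Psmb10, 0.26 ± 0.29 for Psmb9, 0.18 ± 0.29 for Psmb8, -0.34 ± 0.39 for Psme1 and -0.59 ± 0.35 for Psme2, with adjusted p-values of 0.672 to 0.925 by limma. The smallest p belonged to Psme3 (1.31 ± 0.38, adjusted p = 0.426). After CpG no member differed between the genotypes either, beside 0.368% of all genes, and 4 of 47 had an unadjusted p under 0.05, against 12.6% of all genes. Psmb6 had the smallest p (0.60, adjusted p = 0.287).

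Without treatment 1 member differed between the genotypes, beside 0.515% of all genes called lower in TNF-KO. Psme3 was at 0.70, 0.98, 1.14 and 1.78 in untreated TNF-KO spleens, against 2.79, 2.71, 1.89 and 2.09 in untreated C57BL/6 control spleens, without overlap, a difference of -1.22 ± 0.27 (limma adjusted p = 0.0477). With the pancreas markers as a covariate, and when any array but TNF-KO replicate 4 or C57BL/6 control replicate 3 was left out, this call was lost. Erythroid marker means were 1.86, 2.32, 2.64 and 4.01 in untreated TNF-KO spleens, against 3.79 to 4.85 in C57BL/6 control spleens, with 1 of 9 markers called lower. Proliferation marker means were -1.87 to -0.01 in untreated TNF-KO spleens and -0.58 to 0.33 in C57BL/6 control spleens, with 0 of 8 called, and the part of these markers was not tested.

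**Figure D5:**
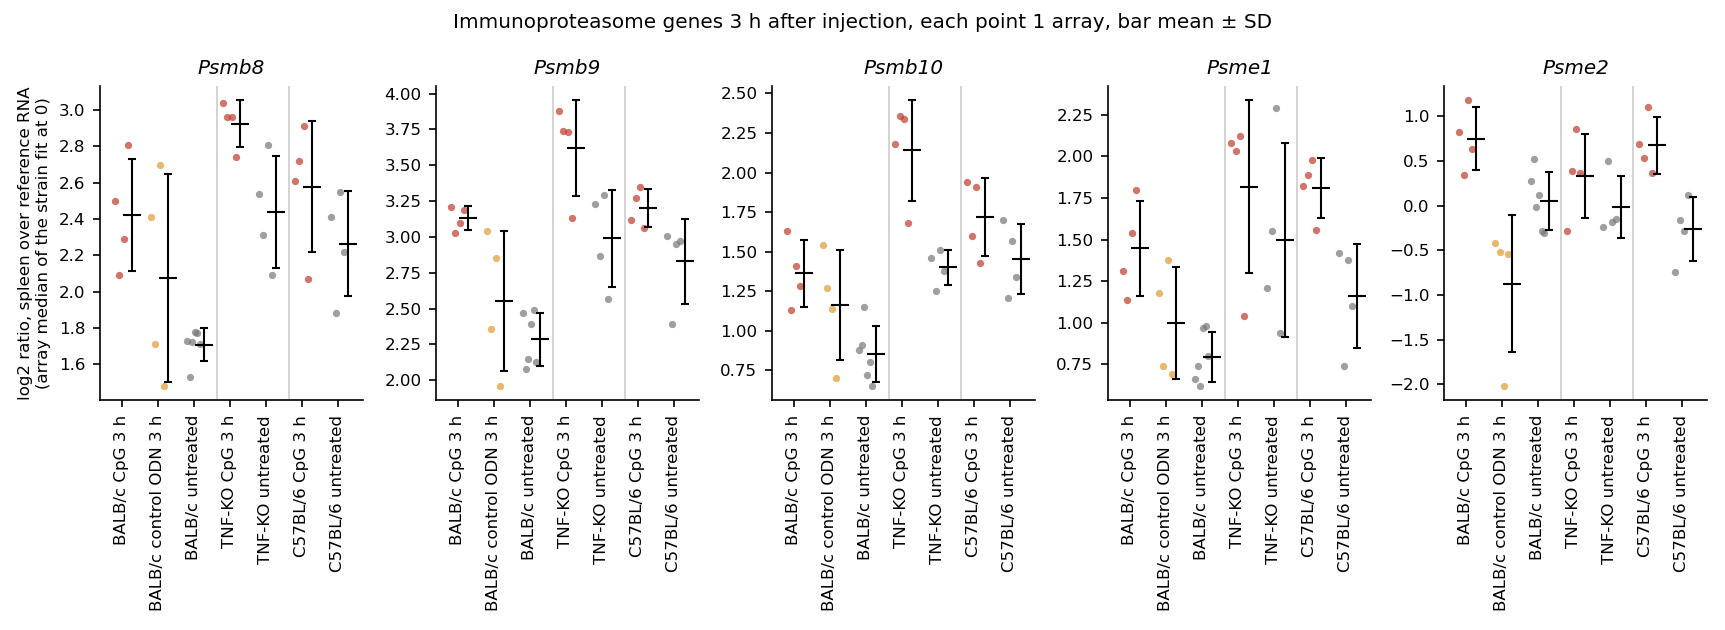
Log2 ratio of the 5 immunoproteasome genes 3 h after CpG or control ODN and in untreated spleens of BALB/c, TNF-KO and C57BL/6 control mice. Points are arrays and bars give the mean ± SD; Psme2 lies at 0.34 to 1.18 after CpG ODN and at -2.02 to -0.42 after control ODN in BALB/c.

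The strains were set side by side in 1 fit of all arrays, where strain and array run cannot be told apart. The response at 3 h differed for no member, beside 0.453% of all genes, and 4 of 47 had an unadjusted p under 0.05, against 6.45% of all genes. Psmg3 had the smallest p (0.55, limma adjusted p = 0.413). Between untreated C57BL/6 control and BALB/c spleens 1 immunoproteasome gene and 2 others were higher and 1 other lower, beside 8.47% of all genes higher and 6.06% lower. Psmb10 was at 1.70, 1.21, 1.57 and 1.34 in C57BL/6 control spleens, against 0.65 to 1.15 in BALB/c spleens (0.60 ± 0.21, adjusted p = 0.0411). Psmb8 gave 0.56 (adjusted p = 0.0578), Psmb9 0.54 (adjusted p = 0.101), Psme1 0.36 (adjusted p = 0.231) and Psme2 -0.32 (adjusted p = 0.503). Psme4 was at -2.42, -1.21, -1.64 and -1.05 in C57BL/6 control spleens, against -0.58 to 0.80 in BALB/c spleens, a difference of -1.48 ± 0.32 (limma adjusted p = 0.00109). Psmd8, a regulatory particle subunit (0.48, adjusted p = 0.0231), and Psme3 (0.77, adjusted p = 0.0376) were higher. Leaving out any array but BALB/c replicate 3 or C57BL/6 control replicate 2 left 0 immunoproteasome calls, and without the named C57BL/6 control array there were 2. The others had 1 call without BALB/c replicate 5 or C57BL/6 control replicate 1. With arrays scaled to the same spread, Psmb10 (adjusted p = 0.199) and Psme3 (0.272) were not called. Markers called higher in C57BL/6 control were 4 of 8 of T cells, 4 of 7 of dendritic cells, 4 of 10 of neutrophils and 2 of 11 of monocytes and macrophages. Of 5 natural killer cell markers 2 were higher and 1 lower, and of 9 erythroid markers 1 was higher and 1 lower. Dendritic cell marker means were 1.77 to 2.31 in C57BL/6 control spleens and 1.12 to 1.42 in BALB/c spleens, and the part of these markers was not tested.

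Probes of the same gene did not always run alike. The second probe of Psmb10 was called at 3 h (0.85, adjusted p = 0.0238) and at 24 h (0.96, adjusted p = 0.00649) when all probes were tested by limma, where the first was not. It gave 0.52 in TNF-KO mice (adjusted p = 0.322) and -0.08 between untreated strains (adjusted p = 0.858), so that both of those Psmb10 calls rest on 1 probe. For Psmb8 the second probe ran with the first (1.20 at 24 h, adjusted p = 0.000312), while the third had an SE of 0.57 and was not called against untreated BALB/c spleens. The second probe of Psme1 was called at 3, 9, 24 and 72 h as the first was, and also for CpG against control ODN (0.75, adjusted p = 0.0028).

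Genes around the proteasome were counted by list. Of 14 genes of MHC class I presentation downstream of the proteasome, 4 were called higher at 3 h, 4 at 9 h, 6 at 24 h and 4 at 72 h in BALB/c spleens. The shares of all genes called higher at these times were 6.82%, 4.19%, 6.83% and 6.43%. Tap1, the peptide transporter gene that shares its start region with Psmb9, gave 1.54 ± 0.26 at 3 h (limma adjusted p = 6.91e-05), and Lap3, an aminopeptidase, 1.12 at 24 h and 1.55 at 72 h. Of 6 interferon-side transcription factors 5, 4, 2 and 3 were called higher at these times, with Stat2 at 2.03, 1.78, 1.39 and 1.14. Of 10 proteasome cofactors none was called at 3 h or 9 h and 2 at 24 h and at 72 h, and Pomp, the maturation factor of new cores, was among them both times (0.81 and 0.68).

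Of 6 regulators of proteasome genes, the group of Nfe2l1, Nfe2l2 and their partners, 2 were called higher at 3 h, 2 at 9 h, none at 24 h and 1 at 72 h, after 1 at 0.5 h and 3 at 1 h. Of all genes, 0.256% were called at 0.5 h and 3.3% at 1 h in either direction. The regulators called at 1 h were Maff, Nfe2l2 and Mafk, and Maff gave 2.82 at 1 h and 2.13 at 3 h. Of the interferon-side transcription factors, Irf1 (1.69) and Irf9 (0.64) were called higher at 1 h. Of 4 genes of ubiquitin and its relatives 1 was higher at 3 h, 1 at 9 h, none at 24 h and 3 at 72 h, beside 6.82%, 4.19%, 6.83% and 6.43% of all genes, with Ubd, a ubiquitin-like tag, at 2.48 ± 0.45 (adjusted p = 0.000418). None of the genes of these 5 lists was called lower against untreated BALB/c spleens at 3, 9, 24 or 72 h. After control ODN no gene of the 5 lists was called. In C57BL/6 control mice 3 of the 14 presentation genes and 4 of the 6 transcription factors were higher after CpG, and in TNF-KO mice 0 and 3, beside 4.95% and 3.45% of all genes. Of the 4 ubiquitin genes none was called after CpG in C57BL/6 control mice. In TNF-KO mice Ube2l6 (1.15, limma adjusted p = 0.0353) and Uba7 (0.77, adjusted p = 0.0447) were higher. Without treatment Ube2l6 was lower in TNF-KO than in C57BL/6 control spleens (-1.62, adjusted p = 0.0273), beside 0.515% of all genes. No gene of the 5 lists differed between the genotypes in its response.

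Across the 12 group means, which share the reference RNA, each immunoproteasome gene was set against the mean of the other 4. Pearson's r was 0.94 for Psmb8, 0.93 for Psme1, 0.84 for Psmb9, 0.79 for Psmb10 and 0.61 for Psme2. The 10 genes most like the mean of all 5 by r over the 12 group means were Iigp1 (0.95), Fcer1g, Gvin1, Rbm17, Pinx1, Bst2, Timm10, Anxa3, Stard5 and Mlkl (0.92). The nearest other proteasome gene was Psmg2 at 0.89 (rank 32), and Psmd9, at -0.72, ran the other way. The Psmd9 value is that of 1 of its 3 probes, the one on which its call against control ODN rests.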

How the data were processed

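Mouse spleen RNA was hybridised with Universal Mouse Reference RNA on 50 two-colour arrays. The deposited values are log2 ratios of Cy5 over Cy3. Per the labels and the series text, the authors corrected the background, removed flagged spots and spots with both signals under 100, and applied lowess. The series text calls the arrays of a time independent experiments, and p-values measure the spread between arrays. Precision is limited by how many arrays a group holds.

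Of 36607 probes, 30750 had values, and 0.52% to 10.18% of these were missing per array. Per the platform annotation, updated through gene identifiers, 26926 probes had 1 gene symbol, 203 several and 9478 none. Dyes were the same on all arrays, no 2 arrays correlated below 0.661, and no 2 arrays held identical values.

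Arrays were centred on their medians. A gene was represented by the probe with most values, and genes with values on over 70% of a fit's arrays were tested with limma 3.58.1 (lmFit, eBayes) in R 4.3.3, with Benjamini-Hochberg adjustment over all genes. Separate fits held the 34 BALB/c arrays, the 16 TNF-KO and C57BL/6 control arrays, and all 50. The code was tested on simulated data. Tables and figures were made with Python 3.11.15, pandas 2.3.3, numpy 2.4.6 and matplotlib 3.10.9.

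The proteasome genes and all gene and marker lists were chosen with earlier results of these data known. The 5 immunoproteasome genes and the counterparts Psmb5, Psmb6 and Psmb7 are always named. Of the other members, a comparison names up to 3 called higher and up to 3 called lower by smallest p, or the member of smallest p where none is called. Psma8, Psmb11, Psmd9, Psmd14, Psme3, Psme4, Psmf1 and Psmg1 at 24 h and 72 h, and the 4 calls between 9 h and 24 h, were named after their values were seen. Alternatives changed centring, scaling, quantile normalization, filters, probes, array weights, moderation, blocks and the arrays used.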

Additional observations from a re-analysis of the deposited data

Results flagged for a closer look

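Within groups of 4 to 6 arrays, 1 array stood far from the rest in 9 of 84 sets of values by Dixon's criterion, which chance alone passes in about 1 set in 20. The sets were the 5 immunoproteasome genes and 2 summary values in each of the 12 groups.

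For Psmb8, untreated BALB/c replicate 2 was at 1.53, against 1.71 to 1.78 on the other arrays. For Psmb9, untreated C57BL/6 control replicate 2 was at 2.39, against 2.95 to 3.01. Psme1 had replicate 2 of 24 h at 2.39, above 1.70 to 1.81 on the others, and replicate 4 of the TNF-KO CpG group at 1.04, below 2.03 to 2.12.

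Psme2 had 3 such arrays. Replicate 1 of 1 h was at -1.27, against -0.21 to -0.11, and replicate 3 of control ODN at -2.02, against -0.54 to -0.42. Untreated TNF-KO replicate 2 was at 0.50, against -0.24 to -0.15. The mean of the 5 genes was 1.51 on replicate 1 of 0.5 h, against 1.29 to 1.32 on the other arrays, and 1.55 on replicate 2 of 3 h, against 1.89 to 1.94.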

How the results depend on the processing

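Counts are given as immunoproteasome genes of 5 and others of 42 called, and the cause of each move was not tested. Of 124 named values 17 turned sign under an alternative, and none of the turned values was called in either setting. Of the values under alternatives, 180 lost and 36 gained a call. At 24 h and 72 h the immunoproteasome counts of 3 and 4 moved under no alternative by over 1.5 times. No centring, or filters on missing values, moved a count by over 1.5 times.

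Scaling to the same spread gave 4 immunoproteasome and 2 other calls for CpG against control ODN, 0 others for untreated TNF-KO and 0 immunoproteasome genes between untreated strains. Quantile normalization gave 3 and 2 for CpG against control ODN, 1 immunoproteasome gene from 9 h to 24 h, 1 other in C57BL/6 control, 0 immunoproteasome genes in TNF-KO, 0 others for untreated TNF-KO and 0 immunoproteasome genes between strains. It also moved the share of calls that were higher from 9 h against 3 h to 29.6%, against 18.4%, and scaling moved that of untreated TNF-KO to 26.1%, against 13.5%.

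With all probes tested, 3 h had 1 other and untreated TNF-KO 0. The mean of all probes gave 3 immunoproteasome genes for CpG against control ODN, 5 others in C57BL/6 control, 0 immunoproteasome genes in TNF-KO, 0 others for untreated TNF-KO, and 0 and 5 between strains. Robust moderation gave 1 other at 3 h. Array weights raised the calls over all genes as well, at 72 h from 1616 to 5995. Array weights gave 1 other at 1 h, 5 and 6 at 3 h, 7 others at 9 h, 33 others at 72 h, 2 others from 3 h to 9 h, 1 and 8 from 9 h to 24 h, 1 and 2 from 24 h to 72 h, 2 and 7 for CpG against control ODN, 5 others in C57BL/6 control, 2 immunoproteasome genes in TNF-KO, and 3 and 5 between strains.

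The run as a fixed block gave 1 other at 1 h, 0 others at 3 h, 1 and 0 at 9 h, 0 others at 24 h, 1 other from 9 h to 24 h, 2 immunoproteasome genes in C57BL/6 control and 0 in TNF-KO. As a random block it gave 1 other at 3 h, 5 others in C57BL/6 control and 0 immunoproteasome genes between strains. The first run alone gave 2 and 1 at 1 h, and the third alone 0 others from 9 h to 24 h. Fits of only the groups compared gave 5 and 4 at 3 h, 0 others from 9 h to 24 h, 0 immunoproteasome genes in TNF-KO, 0 others for untreated TNF-KO, and 3 and 5 between strains. The pancreas covariate, chosen after seeing the data, gave 0 and 1 in C57BL/6 control and 0 others for untreated TNF-KO.

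Whether replicate numbers pair the arrays is not settled by these values. After group means were taken off, same-numbered arrays of different groups correlated at -0.41 to 0.51 (median 0.04) in BALB/c. In TNF-KO and C57BL/6 control they correlated at -0.26 to 0.38 (median 0.10). Differently numbered arrays had medians of -0.03 and -0.05. Of the same-numbered pairs, 45 of 112 in BALB/c and 12 of 24 in TNF-KO and C57BL/6 control were over 0.1. Replicate 4 had the lowest immunoproteasome mean of its group at 1 h (1.043), 9 h (1.455), 24 h (1.845) and 72 h (1.722). It did so too after control ODN (0.858), after CpG in TNF-KO (1.792) and C57BL/6 control (1.701), and in untreated TNF-KO (1.365). At 0.5 h and 3 h in BALB/c, and in untreated BALB/c and C57BL/6 control, another replicate was lowest. The main fits took no account of replicate numbers. The replicate block gave 1 other at 3 h, 8 others at 72 h, 2 others for CpG against control ODN and 1 other between strains. Under it Psme2 at 9 h (adjusted p = 0.0921), Psma6 at 3 h (0.148), and Psmb11 (0.0515) and Psma7 (0.0533) for CpG against control ODN were not called, and control ODN against untreated had 0 calls over all genes.

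Leaving out each array in turn gave immunoproteasome counts of 1 to 3 at 3 h, 1 to 5 at 9 h, 0 to 1 from 9 h to 24 h, 0 to 1 for control ODN, 1 to 2 for CpG against control ODN, 0 to 1 in C57BL/6 control, 0 to 2 in TNF-KO and 0 to 2 between strains. Counts of others ranged from 0 to 3 at 3 h, 2 to 6 at 9 h, 10 to 26 at 24 h, 5 to 21 at 72 h, 0 to 1 from 3 h to 9 h, 1 to 8 from 9 h to 24 h, 0 to 3 for control ODN, 1 to 4 for CpG against control ODN, 0 to 3 in C57BL/6 control, 0 to 1 in TNF-KO, 0 to 1 for untreated TNF-KO and 1 to 3 between strains.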
